A study of Mus musculus with 2 samples.

Results

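The interleukins and their receptors were read in uterine stromal cells with and without the transcription factor Hand2. The members were the genes whose symbol begins with Il followed by a number, other than Il6st, taken from probe sets annotated to exactly 1 gene, a probe set being the group of short probes that reads a transcript. There were 72 such genes with 111 probe sets, of 18193 named genes with 34945 probe sets. By role, 34 were ligands (the antagonist Il1rn among them), 34 were receptor chains, and 2, Il18bp and Il22ra2, were soluble binding proteins. The other 2, the amino acid oxidase Il4i1 and the opposite-strand transcript Il1bos, fall under the name rule without being an interleukin or a receptor.

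The control array carried pooled RNA of mice with floxed Hand2. The Hand2-null array carried pooled RNA of mice that also had PRcre, in which the locus of the progesterone receptor drives Cre recombinase and so removes the floxed gene. Both labels list Prcre and the same mixed C57BL/6 and SV129 background, so they do not settle whether the control mice carried Cre. Stromal cells were isolated on day 4 of pregnancy by removing the epithelium, digesting the rest with collagenase and keeping the cells that attached to a plate. The number of mice per genotype is given as 5 in the design and 4 in the extraction protocol, and no age of the mice is given beyond the day of pregnancy. Cre made from that locus acts in each uterine cell type that makes the progesterone receptor, not in stroma alone.

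Interleukins are small secreted proteins that carry signals among immune cells and between immune and tissue cells. Members of the IL-1 family signal through receptors with a Toll-like intracellular domain, the IL-17 receptors act through the adaptor Act1, and most other families signal through receptor chains bound to JAK kinases and STAT factors. In the uterus around implantation, IL-6 and IL-1 are made in the endometrium, IL-11 is needed for decidualization, and IL-15 supports uterine natural killer cells. IL-17A is known chiefly as a product of T cells and innate-like lymphocytes at epithelial barriers.

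Values are MAS5 signals, a linear intensity scaled by the authors to the same trimmed mean on both arrays. The floor, under which a signal was treated as not measured, was each array's 60th percentile, or 64.2 in the control and 67.5 in the Hand2-null array. The targeted gene was read as a check: the bright probe set of Hand2 had 1545 in the control and 38.5 in the Hand2-null array, at least 22.9-fold lower. The 2 dimmer probe sets of Hand2 lay under the floor, at 37.1 and 18.1 in the control and at 8.04 and 2.46 in the Hand2-null array, and the exons that the floxed allele removes are not stated in the labels. With 1 pooled array per genotype there is no replicate, no test and no error of a difference. As a yardstick, probe sets of the same gene differed in log2 ratio with a standard deviation of 0.23 in the dimmest quartile of 917 genes, which leaves out variation between mice. Of the markers of the labelled cell type, 12 of 12 stromal genes were above the floor in both arrays, with 5 higher and 7 lower, a median log2 ratio of -0.12 and summed signals of 56331 and 61099. Epithelial markers were present too, 11 of 11, at 7475 and 9800. Smooth muscle markers differed most, 10 of 10 higher and 9 of them at least 2-fold, at 18461 in the control and 42010 in the Hand2-null array. Of the mesothelial markers 5 of 6 were higher and of the endothelial ones 1 of 7, with summed signals of 1363 and 2105 and of 2584 and 2250, and 0 of 4 B cell markers were measured. In such isolates fewer cells of a type and less RNA per cell cannot be told apart.

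Of the 72 members, 22 reached the floor in both arrays, 5 in the Hand2-null array only, 1 in the control array only and 44 in neither. That is 38.9% of members measured in at least 1 array, against 57.0% of all named genes. Of the 28 measured members 1, Il17a, was higher by at least 2-fold in Hand2-null, where 1.99% of all 10376 measured genes were. At least 2-fold lower were 0 members, where 0.742% of all measured genes were. At 1.5-fold, 7 members were higher against 6.21% of all genes, and 1 was lower against 3.32%. Of the 7, 3 (Il18r1, Il33 and Il7) had a control signal under the floor, so that they entered the count through the array in which they were high. Over the 22 members above the floor in both arrays, 13 were higher and 9 lower, and the median log2 ratio was 0.06. Under median centring, quantile or loess scaling the tally was 11 and 11, because Il13ra1 and Il1rl2, both at about 0, turned sign. Over all 9660 such genes the median was -0.04, and 44.1% were higher.

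**Figure D1:**
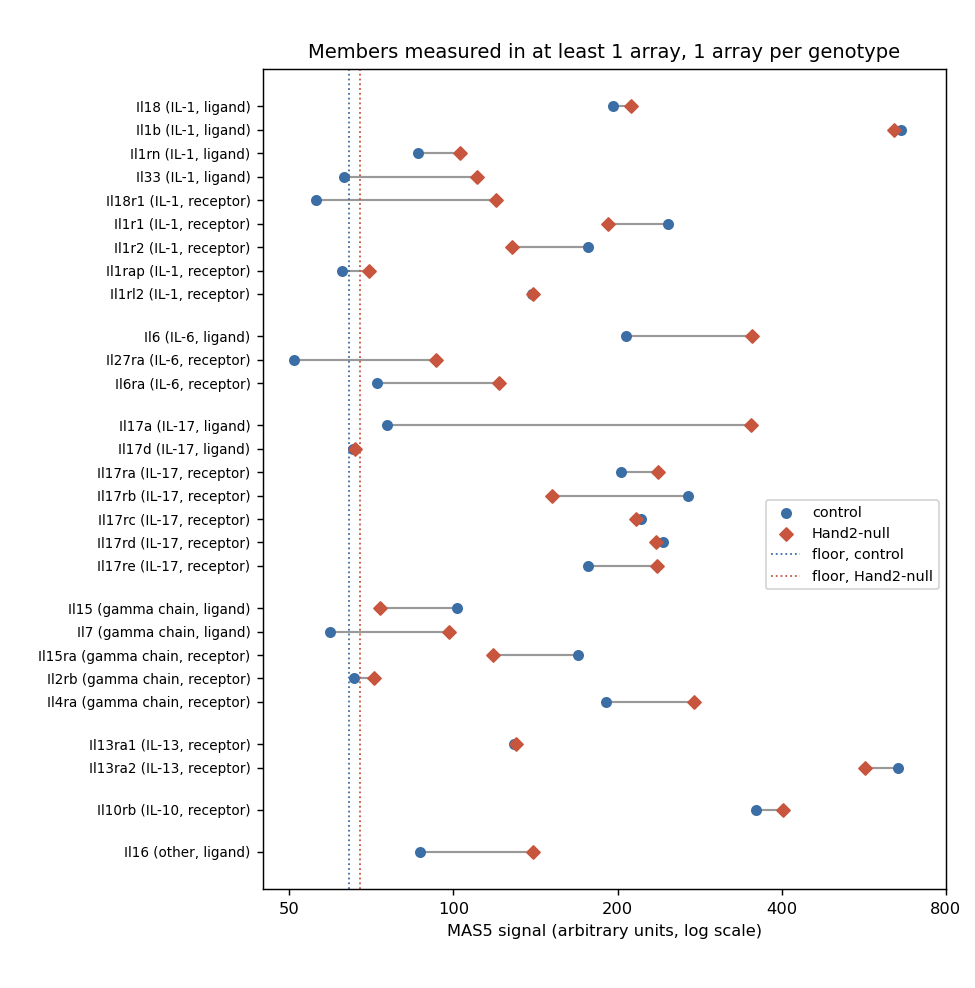
MAS5 signal (log axis, arbitrary units) of the 28 members measured in at least 1 array, grouped by cytokine family, with a circle for the control and a diamond for the Hand2-null array and dotted lines at the floors of 64.2 and 67.5. The widest gap is that of Il17a, from 75.5 to 352, and Il17rb, from 270 to 152, has the widest gap in the other direction.

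The IL-17 family held both ends of the range of ratios. Il17a, the founding IL-17 ligand, had a signal of 75.5 in the control and 352 in the Hand2-null array on its only probe set. It was thus 4.66-fold higher, a log2 ratio of 2.22, and 6 of all measured genes, Il17a included, had a ratio that high. The control signal was 1.17 times the floor, so the fold rests on a dim control value. Il17rb, a chain of the receptor for IL-25, had 270 and 152, or 1.78-fold lower, a log2 ratio of -0.83, and 1.34% of measured genes had a ratio that low. It was the member with the lowest ratio, also on 1 probe set.

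The other IL-17 receptors differed less. Il17ra, the chain shared by most of the family, had 203 and 237 on its brighter probe set and 45.7 and 80.7 on the other, log2 ratios of 0.23 and at least 0.33. Its partner for IL-17A, Il17rc, had 221 and 216. Il17re, the receptor of IL-17C, had 176 and 236, a ratio of 0.42 on the log2 scale against 0.24 on a dimmer probe set. Il17rd, also known as Sef and as an antagonist of FGF receptor signalling, had 242 and 235. All 5 IL-17 receptors on the array were above the floor in both arrays, and 2 were higher and 3 lower. Of the other ligands Il17d lay at the floor, at 65.3 and 66.1, and Il17b and Il25, the ligand of Il17rb, were under it in both arrays.

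Because Il17a and Il17rb mark the ends of the range, the 250 bases before their RefSeq start sites are shown (GRCm38.p6, 5′ to 3′ on the strand of the gene), with each E-box, CANNTG, in capitals. E-boxes are the elements that basic helix-loop-helix factors such as HAND2 bind with a partner. The pattern reads the same on both strands.
Il17a (chr1:20730655-20730904, + strand): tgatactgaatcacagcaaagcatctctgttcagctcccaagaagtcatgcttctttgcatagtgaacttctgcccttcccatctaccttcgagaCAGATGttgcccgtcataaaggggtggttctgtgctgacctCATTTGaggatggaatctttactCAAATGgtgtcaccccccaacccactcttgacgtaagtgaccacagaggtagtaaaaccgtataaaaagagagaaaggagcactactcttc
Il17rb (chr14:30008897-30009146, - strand): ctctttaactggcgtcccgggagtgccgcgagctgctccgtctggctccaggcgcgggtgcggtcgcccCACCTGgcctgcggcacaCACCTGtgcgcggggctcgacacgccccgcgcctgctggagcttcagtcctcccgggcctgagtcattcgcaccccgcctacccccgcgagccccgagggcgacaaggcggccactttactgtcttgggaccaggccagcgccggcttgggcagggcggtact
The stretch of Il17a holds 3 E-boxes and that of Il17rb 2. The first of Il17a, beginning 155 bases before the start, is CAGATG, which is CATCTG on the other strand. Over 32851 RefSeq stretches of the same length, 66.2% hold at least 1 CANNTG and 14.4% hold CATCTG on either strand, so an E-box in such a stretch is common. No binding was measured here.

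IL-17A and IL-1 act on tissue cells through shared response genes, and 18 of these were listed. Of them 13 were measured, 10 higher and 3 lower. By at least 2-fold 2 of them were higher and 0 lower, and the median log2 ratio was 0.69 over the 12 measured in both arrays, against -0.04 over all genes. Lcn2, a secreted lipocalin, had 162 and 758, a log2 ratio of 2.22. The protease Mmp3 had 118 and 360, and the chemokine Cxcl1 454 and 849, log2 ratios of 1.60 and 0.90. S100a9, a calprotectin subunit, went the other way at 138 and 70.0, a log2 ratio of -0.98. It is also a neutrophil marker, and on that list 4 of 7 genes (Camp, Cxcr2, Elane and Mpo) were under the floor in both arrays. S100a8, the partner of S100a9, was lower too, at 192 and 105. Csf3r, at 64.9 and 21.5, passed the floor in the control array only and has no fold. The summed signals were 453 and 287, or 124 and 111 without S100a9 and S100a8, where Csf3r alone was measured. Lcn2 is an epithelial marker as well, and 10 of the 11 epithelial markers were higher. Without Lcn2 they summed to 7313 and 9042, and without Lcn2 and Ltf, which was higher too, to 6754 and 7476. The part of either cell type in these values was not tested.

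Cells known to make IL-17A were read through 10 markers of T and innate-like lymphocytes. Of these 3 were measured, Cd3g at 91.0 and 169, Cd3d at 49.3 and 76.6, and Thy1, which other cells make too, at 1331 and 1162. Cd3e, Cd4, Cd8a, Cd28, Cd247, Ccr6 and Blk were under the floor in both arrays. The summed signals were 1634 and 1628, but most of that is Thy1, so the sum does not show how the other markers differed. Thy1 was lower, Cd3g was higher, and Cd3d passed the floor in the Hand2-null array only. The log2 ratio of Cd3g was 0.89, beside 2.22 for Il17a. The part of these cells in the value of Il17a was not tested.

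**Figure D2:**
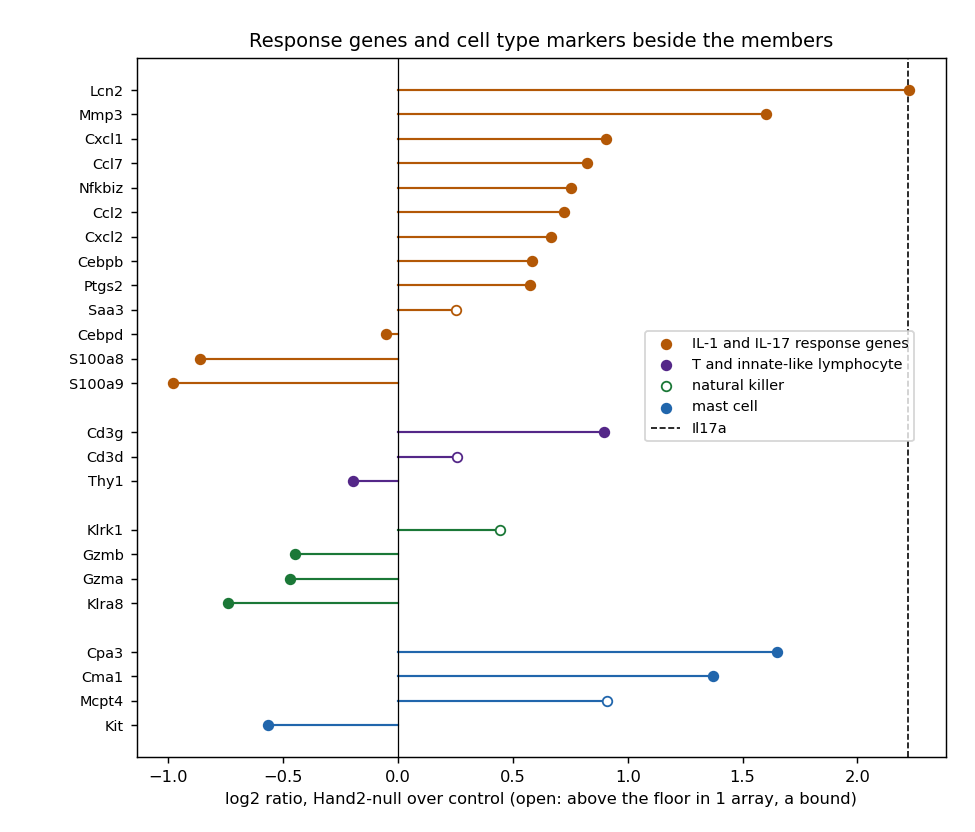
Log2 ratio of Hand2-null over control for the measured genes of 4 lists, the response genes of IL-1 and IL-17 and the markers of T and innate-like lymphocytes, natural killer cells and mast cells. Filled points are above the floor in both arrays, open points are bounds, and the dashed line is the ratio of Il17a at 2.22, which Lcn2 matches and the other genes shown lie below.

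In the IL-6 family the 2 members measured in both arrays, Il6 and Il6ra, were higher in the Hand2-null array, and Il27ra passed the floor in that array only. Il6 itself, a ligand of inflammation and acute phase responses, had 207 and 353, or 1.70-fold higher, a log2 ratio of 0.77. Il6ra, the chain that binds it, had 72.5 and 121, or 1.67-fold higher, a log2 ratio of 0.74, and its dim second probe set was under the floor at 26.6 and 36.8. Il27ra, a receptor chain for IL-27, had 50.9, under the floor, and 93.0, at least 1.45-fold higher. Ligand and receptor thus had ratios of about the same size, and 3.98% and 4.28% of measured genes had a ratio as high as theirs. The control signal of Il6ra was 1.13 times the floor, so its fold rests on a dim control value. With the floor added to each signal the ratios were 0.63 for Il6 and 0.46 for Il6ra. Il11, known for its need in decidualization, was under the floor at 11.6 and 13.6, as were Il31 and Il31ra.

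The immediate-early and heat-shock genes, a response to handling of cells among other stimuli, were read beside Il6. Of 15 genes 13 were higher, 0 at least 2-fold, with a median log2 ratio of 0.27 and summed signals of 33604 and 41492. Fosb, Atf3 and Nr4a2 had log2 ratios of 0.98, 0.88 and 0.83. Their part in the value of Il6 was not tested. Of 14 JAK-STAT transducers and SOCS feedback genes on the array 12 were measured, 9 higher and 3 lower, 0 past 2-fold in either direction, with a median of 0.15 over the 11 in both arrays. Socs2 had 803 and 1470, a log2 ratio of 0.87, and Cish had 0.42. Socs3, the feedback inhibitor of IL-6 signalling, had 0.35 at 1916 and 2440, and 0.66 and 0.50 on dimmer probe sets. Stat3, the main STAT factor of IL-6, had 0.34 at 767 and 967 on its brightest probe set. Its other measured probe sets gave 0.32 and, at 724 and 692, -0.07, so they differed in sign.

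Since Il6 and Il6ra had ratios of the same sign, the 250 bases before their start sites are shown in the same way.
Il6 (chr5:30012864-30013113, + strand): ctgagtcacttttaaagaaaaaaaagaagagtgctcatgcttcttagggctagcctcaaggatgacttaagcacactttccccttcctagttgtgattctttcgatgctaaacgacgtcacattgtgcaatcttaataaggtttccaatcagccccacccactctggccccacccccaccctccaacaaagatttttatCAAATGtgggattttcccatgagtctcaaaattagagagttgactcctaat
Il6ra (chr3:89913197-89913446, - strand): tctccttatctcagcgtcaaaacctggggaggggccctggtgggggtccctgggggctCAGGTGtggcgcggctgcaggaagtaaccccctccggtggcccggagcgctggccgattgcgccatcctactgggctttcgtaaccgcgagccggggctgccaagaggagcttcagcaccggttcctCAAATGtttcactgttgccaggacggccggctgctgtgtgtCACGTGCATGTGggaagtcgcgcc
That of Il6 holds 1 E-box, beginning 51 bases before the start, and that of Il6ra 4. None of the 5 is CATCTG on either strand.

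In the IL-1 family the 3 ligands measured in both arrays lay near unity, Il33 passed the floor in the Hand2-null array only, and receptors lay on both sides. Il1b, its main inflammatory ligand, had 662 and 642, a log2 ratio of -0.04, and Il18 had 196 and 212, a ratio of 0.11. Il1rn, the natural receptor antagonist, had 86.3 and 103, a ratio of 0.25, with its other 2 probe sets under the floor. Il1b and Il18 were thus nearer to no difference than the yardstick of 0.23, and Il1rn was just past it. Il33, an alarmin held in the nucleus, had 62.9, just under the floor, and 110, at least 1.72-fold higher.

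Among IL-1 receptors, Il1r1, the signalling chain, had 248 and 192, and Il1r2, a decoy that binds IL-1 without signalling, had 176 and 128, log2 ratios of -0.37 and -0.46. Signalling receptor and decoy were thus both lower, and by similar amounts. Il1rl2, the IL-36 receptor, had 139 and 140, with a log2 ratio of 0.00 that turned slightly negative under each rescaling of the arrays. Il18r1, which binds IL-18, had 56.0, under the floor, and 120, at least 1.86-fold higher, while its partner Il18rap was under the floor in both. Il1rap, the chain shared by IL-1 and IL-33 receptors, passed the floor in the Hand2-null array only, at 62.5 and 69.9, on 1 of 5 probe sets. Il1a, at 12.2 and 43.2, the IL-36 genes Il1f5, Il1f6, Il1f8 and Il1f9, and Il1f10, Il18bp, Il1rapl1 and Il1rapl2 were under the floor in both arrays.

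Several of these genes are neighbours. In the RefSeq annotation of GRCm38.p6 the protein-coding genes Il1r2, Il1r1 and Il1rl2 follow each other, and Il18r1 and Il18rap lie side by side on the same chromosome. The log2 ratios in the first run were -0.46, -0.37 and 0.00. That of Il18r1 was at least 0.90, but it passed the floor in the Hand2-null array only, which sets the sign of its bound. In the run of Il1f8, Il1f9, Il1f6, Il1f5, Il1f10 and Il1rn the last gene alone was measured. Il1b was measured and its neighbour Il1a was not.

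Transducers of the IL-1 and IL-17 receptors differed little. All 15 on the array were measured, 9 higher and 6 lower, 0 past 2-fold in either direction, with a median log2 ratio of 0.08 over the 14 in both arrays. Tnfaip3, the feedback inhibitor A20, was at 0.94 with 398 and 764, and Nfkbia, the NF-kB inhibitor, at 0.30. Tab1, a partner of the kinase TAK1, and Myd88, the adaptor of IL-1 receptors, were at -0.33 and -0.30.

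In the gamma chain family Il15 and its receptor chain Il15ra were both lower. Il7, the other measured ligand, passed the floor in the Hand2-null array only, which sets the sign of its bound. Il15 had 102 and 73.3, or 1.39-fold lower, a log2 ratio of -0.47, with the Hand2-null signal at 1.09 times the floor. Il15ra, which presents it, had 170 and 118, or 1.44-fold lower, or -0.52 on the log2 scale. The dimmer probe set of Il15ra went from 70.2 to 33.2, under the floor, at least 1.04-fold lower. Both differences were under 2-fold and slightly larger than 2 standard deviations of the yardstick, or 0.46, and 6.22% and 4.57% of measured genes had a ratio as low. Il2rb, the beta chain that IL-15 and IL-2 share, lay near the floor at 65.6 and 71.5, with a ratio of 0.12.

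Natural killer markers, whose cells IL-15 supports, were read beside them. Of 9 on the array 5 were measured, 3 lower, 1 higher and 1, Gzmc, without a fold. Klra8 had 154 and 92.4, Gzma 139 and 100.3, and Gzmb 230 and 169, log2 ratios of -0.74, -0.47 and -0.45. Klrk1, the higher one, had 53.7, under the floor, and 87.3, a log2 ratio of at least 0.44. Ncr1, Prf1, Eomes and Tbx21 were under the floor in both arrays, and the summed signals were 812 and 675. The part of these cells in the values of Il15 and Il15ra was not tested.

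Il4ra, a receptor chain for IL-4 and IL-13, had 190 and 277, or 1.45-fold higher, or 0.54 on the log2 scale. A dimmer probe set, at 36.5 and 72.9, gave at least 0.18. The partner of Il4ra, Il13ra1, had 129 and 130, a ratio of 0.01 whose sign turned under each rescaling, and the 2 dimmer measured probe sets gave 0.15 and 0.21. Il13ra2, a decoy for IL-13, had 654 and 568, a ratio of -0.20. The ligands Il4 and Il13, which are neighbours, did not reach the floor in either array, at 14.6 and 27.2 and at 2.87 and 9.89. Of the 3 chains that handle IL-13, the decoy was thus lower and Il4ra higher, the former by less than the yardstick.

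Mast cell markers were read beside these chains and beside Il33 and Il18r1. Of 8 on the array 4 were measured, 3 higher and 1 lower, 2 of them at least 2-fold higher, and the summed signals were 496 and 974. The proteases Cpa3 and Cma1 had 121 and 381 and 82.2 and 213. Mcpt4, which passed the floor in the Hand2-null array only, was at least 1.88-fold higher. Kit, the lower one and the brightest of the list in the control, had 192 and 130, a log2 ratio of -0.56. Fcer1a, Ms4a2, Tpsab1 and Tpsb2 were under the floor in both arrays. Their part in the members' values was not tested.

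Il7, a growth factor of lymphocytes made by stromal cells, had 59.4, under the floor, and 98.2, at least 1.53-fold higher, while its receptor Il7r stayed under the floor at 36.2 and 64.2. Il2, Il9, Il21, Il2ra, Il9r and Il21r were under it too. In the IL-10 family only Il10rb was measured, the chain that IL-10 and IL-22 receptors share, at 359 and 402, a log2 ratio of 0.16. Il10, at 16.2 and 49.8, Il20, Il24, Il10ra, Il20ra, Il20rb, Il22ra1 and Il22ra2 were under the floor. So were all 5 members of the IL-12 family, Il12a, Il12b, Il23a, Il12rb1 and Il12rb2, and Il3, Il5, Il3ra and Il5ra.

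Il16, a chemoattractant that binds CD4, had 86.8 and 140, or 1.61-fold higher, a log2 ratio of 0.69. That is 1 of 4 probe sets, and the other 3 were under the floor and lower in the Hand2-null array, at 34.8 and 34.2, 26.3 and 14.1, and 14.4 and 4.19. Il34, a ligand of the macrophage receptor Csf1r, was under the floor at 22.8 and 17.0. Macrophage and dendritic markers stood at summed signals of 9296 and 9215, with 10 of 12 measured, 5 higher and 5 lower. By at least 2-fold 1 was higher, Clec10a at 98.2 and 224, and 0 were lower. Cx3cr1 had 191 and 124, a log2 ratio of -0.63. Il4i1 and Il1bos were under the floor.

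**Figure D3:**
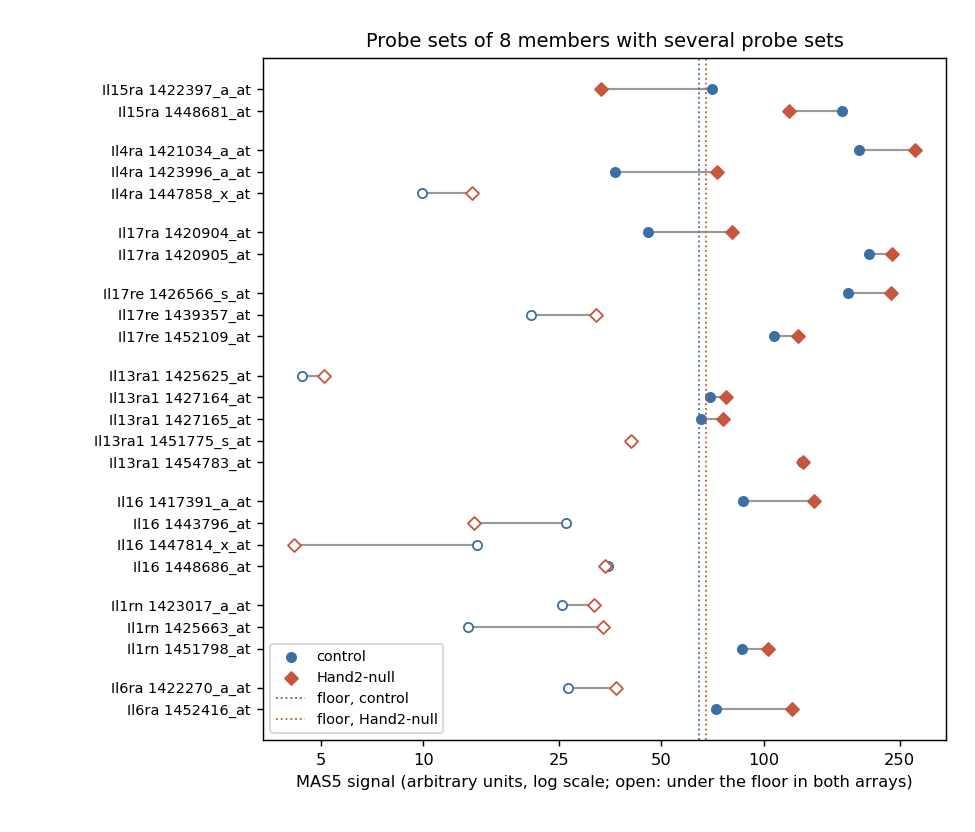
MAS5 signal (log axis, arbitrary units) of each probe set of 8 members with several probe sets, circles for the control and diamonds for the Hand2-null array, open where both arrays are under the floor. The measured probe sets of Il15ra, Il4ra, Il17ra, Il17re and Il13ra1 share a sign within each gene, and the open probe sets of Il16 lie opposite to its measured one. In Il15ra, Il4ra and Il17ra the dimmer measured probe set passed the floor in a single array, which sets the sign of its bound.

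Where several probe sets of a member had a ratio, in Il13ra1, Il15ra, Il17ra, Il17re and Il4ra, they had the same sign in 5 of 5 genes. The dimmer of these passed the floor in the control only for Il15ra, and in the Hand2-null array only for Il17ra and Il4ra. The sign of such a bound follows from the array that passed. Only Il17re and Il13ra1 had several above the floor in both arrays, and the brightest of Il13ra1 turned sign under each rescaling. By role, the median log2 ratio was 0.25 over the 7 ligands measured in both arrays, with 5 higher and 2 lower. The 15 receptors had a median of 0.00, with 8 higher and 7 lower, or 6 and 9 under each of the 3 rescalings. Ligands ranged from -0.47 to 2.22 and receptors from -0.83 to 0.74, so the ranges overlapped over nearly all receptors. A larger share of receptors was measured, 18 of 34 against 10 of 34 ligands.

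Of the 22 members above the floor in both arrays 9, or 40.9%, had a ratio larger in size than 0.46, which is 2 standard deviations of the yardstick. Over all 9660 genes the share was 15.0%, and over the 7544 of them with a mean signal inside the members' range it was 15.8%. The 9 were Il17a, Il6, Il6ra, Il16 and Il4ra, higher, and Il17rb, Il15ra, Il15 and Il1r2, lower.

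**Figure D4:**
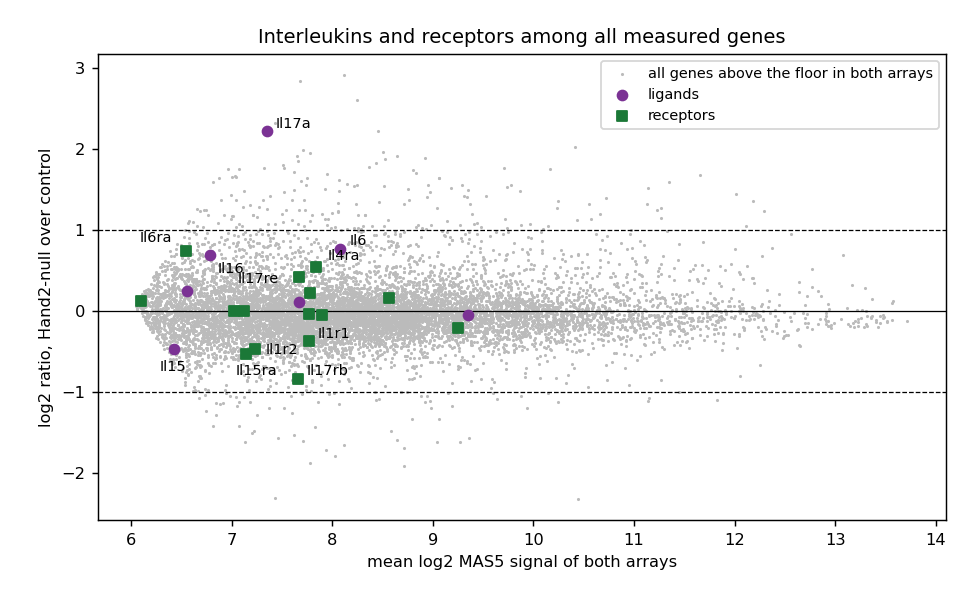
Log2 ratio of Hand2-null over control against the mean log2 MAS5 signal, for the 9660 genes above the floor in both arrays (grey), the 7 ligands (circles) and the 15 receptors (squares), with dashed lines at 2-fold. Il17a at 2.22 lies outside the lines, and the other members lie between -0.83 and 0.77.

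Related cytokines and receptor chains outside the name rule differed little as well. Of 16 on the array 11 were measured, 8 higher, 2 lower and 1 without a fold, 0 past 2-fold in either direction, with a median of 0.16 over the 9 in both arrays. Crlf2, the receptor of TSLP that pairs with Il7r, had 397 and 630, a log2 ratio of 0.66, and Lifr, the LIF receptor, 0.48. Osm, a cytokine of the IL-6 family, was at 0.34 and its receptor Osmr at 0.21. Tslp, Csf2, Csf3, Ebi3 and Cntfr were under the floor in both arrays.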

How the data were processed

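The authors deposited intensity on a linear scale, namely MAS5 signals; per the submitters' processing notes these came from version 1 of Affymetrix Expression Console. No genome build is stated there. Since MAS5 subtracts mismatch probes, dim probe sets give noisy ratios. With 2% trimmed from either end, each array had a mean of 150.001, so a common scaling preceded deposit. Here 64 control probe sets were left out, and values under an array's 60th percentile were set to it (the floor). A gene counted as measured when 1 array or both reached the floor, and its measured probe set of highest mean log2 signal stood for it. A difference was counted from 2-fold. With 1 array under the floor, the fold is a lower bound, and none is given where the bound falls below 1.

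Names came from the platform annotation, and 72 of 72 members matched RefSeq by Entrez ID. The 3 probe sets that list an interleukin gene beside another gene were left out. Each measured member is named, and at most 4 genes of each pathway list and 3 of each marker list, by the size of the ratio. Kit was named besides in the mast cell list, as its only lower marker, and Klrk1 in the natural killer list, as its only higher one. Gzmc and Csf3r were named as measured markers without a fold. The members, lists, alternatives and yardstick were chosen with earlier results of these data known, and the immediate-early list was added after the values were read. The procedure was tested on simulated data. The tools were statsmodels 0.14.6, scipy 1.17.1, matplotlib 3.10.9, pandas 2.3.3 and numpy 2.4.6 under Python 3.11.15.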

Additional observations from a re-analysis of the deposited data

How the results depend on the processing

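Il17a stayed at least 2-fold higher under each alternative run, with log2 ratios from 1.11, a bound with the floor at the 75th percentile, to 2.22. The count of members at least 2-fold higher went from 1 to 2 with the floor at the 50th percentile, where Il18r1 joined, and to 8 with no floor, where 9 were lower in place of 0. At 1.5-fold the counts were 7 and 1. The median over ligands measured in at least 1 array, 0.61, holds Il33 and Il7, which passed the floor only where they were high, and leaves out Il17d, so nothing is read from it; over the 7 ligands in both arrays the median was 0.25. The former was 0.38 after centring, 0.39 after quantile normalization, 0.41 with the floor at the 50th percentile, 0.12 with no floor and 0.30 with the floor as a pseudo-signal. Of 225 alternative values of single members 210 lay within 0.19, the standard deviation between probe sets of a gene, of the main value, and 15 did not, those of Il17a at 1.11 and, with the pseudo-signal, 1.59 among them. Signs turned in 6, all of Il13ra1 and Il1rl2 under rescaling. The log2 ratio of Il15ra was -0.29 as a mean of its probe sets, which takes in a bound of -0.06, and -0.04, as a bound, under the 75th percentile floor. That of Il15, whose signals were 1.58 and 1.09 times the floors, was -0.24 with the pseudo-signal. Such an addition shrinks the ratios of dim signals. Over all genes 206 of 10376 were higher and 77 lower, but 1646 and 1626 of 18193 with no floor. The counts were 117 and 45 of 7489 when the floor was set to the 75th percentile, and 117 and 40 of 10376 with the pseudo-signal. The 44 members under the floor have no measured difference. No paired analysis was possible because each genotype has 1 pooled array.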
